A study of Mus musculus with 24 samples.

Results

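Repair of cisplatin adducts was followed in 9 genes of salt and magnesium transport, its control and epithelial structure in the loop of Henle and distal tubule of the kidney: Slc12a1, Kcnj1, Umod, Cldn16, Slc12a3, Trpm6, Wnk1, Wnk4 and Cdh16. They were chosen by name, as entries whose symbol was 1 of these 9, out of 24357 gene entries with a symbol. Each symbol had 1 entry. The mice were wild-type C57BL/6J females aged 6 months, housed in a light:dark cycle of 12:12 h, and each was given 10 mg/kg cisplatin into the peritoneum. Kidney and liver were collected 2 h after the injection at zeitgeber time (ZT, in hours after lights on) 0, 4, 8, 12, 16 or 20. Every mouse received cisplatin, and no undamaged group is part of the design. Each tissue and time has 2 libraries, 24 in all, and whether those 2 stem from different animals is not in the labels. The p-values therefore reflect only the variation between libraries, which may be technical.

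XR-seq reads the short pieces of damaged DNA strand released by nucleotide excision repair. Adducts on the strand that RNA polymerase reads, the transcribed strand (TS), are found when the polymerase stalls on them, so TS repair of a gene depends on its transcription. Adducts on the non-transcribed strand (NTS) are found by general damage recognition, which works throughout the genome and faster in open chromatin. In the thick ascending limb of the loop, Slc12a1 brings sodium, potassium and chloride into the cell, Kcnj1 returns potassium to the lumen and Cldn16 lets magnesium and calcium pass between cells. Umod encodes uromodulin, the most abundant protein of normal urine. In the distal convoluted tubule Slc12a3 is the thiazide-sensitive sodium chloride cotransporter and Trpm6 a magnesium channel. Wnk1 and Wnk4 are kinases that set the activity of both cotransporters, and Cdh16 is a cadherin of tubule epithelium. Blood pressure and renal salt handling follow a daily rhythm.

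In these bulk tissues a gene's level joins the share of cells that use it and the repair per cell, which cannot be told apart. Kidney libraries held 8718055 to 33716763 reads each, of which 6334958 to 24236776 lay on the TS and 975978 to 3948748 on the NTS of genes. Liver libraries held 12917058 to 28244795, with 9538537 to 21050661 on the TS and 1333813 to 2940892 on the NTS. The tissue labels fitted their markers. The 8 kidney genes summed to 4.98 to 5.82 TS RPKM in kidney and 0.265 to 0.497 in liver. They include Slc12a1 and Umod, so this check shares values with the results below. The 8 hepatocyte genes summed to 3.002 to 4.35 in kidney and 12.0 to 19.0 in liver. RPKM, the deposited value, scales reads to gene length and library size, so that it can be compared between genes. 1 liver library, ZT4 replicate 1, stood apart with the highest sum of 10 proximal tubule markers (1.52 RPKM against a liver median of 0.808), and it held the highest liver TS value of Kcnj1, Cldn16, Cdh16, Slc12a1 and Wnk4. TS tissue and strand results of Kcnj1, Cldn16 and Cdh16 are given with and without it, and without it the TS differences of Slc12a1 and Wnk4 between the tissues were 4.31 and 2.03 on the log2 scale. The kidney libraries hold the other nephron segments too: the proximal tubule list summed to 13.2 to 18.1 RPKM and a list of 10 collecting duct genes to 6.24 to 8.75. Markers of cells that both organs hold overlapped more: 7 endothelial genes summed to 1.93 to 3.29 in kidney and 1.63 to 4.88 in liver, and 6 immune genes to 0.864 to 1.58 and 0.513 to 1.19. The sum of 5 podocyte genes was higher in liver (3.57 to 5.54) than in kidney (1.65 to 2.73). These sums did not speak for each gene. In edgeR's test 3 of the 5 podocyte genes were called higher in kidney and 1 lower, with a median log2 difference of 1.05. Of the 6 immune genes 2 were called higher in kidney and 3 lower, with a median of -0.467. Of all genes tested 42.2% were called higher in kidney and 31.7% lower. The part of these cells in the results was not tested.

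On mm10 the genes differ widely in length. Umod lies on chromosome 7 (chr7:119462708-119479262, minus strand, 16.6 kb), Slc12a1 on chromosome 2 (chr2:125152600-125230001, plus, 77.4 kb), Kcnj1 on chromosome 9 (chr9:32372418-32399194, plus, 26.8 kb) and Cldn16 on chromosome 16 (chr16:26463135-26482764, plus, 19.6 kb). Slc12a3 (chr8:94329208-94366221, plus, 37.0 kb) and Cdh16 (chr8:104601915-104624396, minus, 22.5 kb) share chromosome 8. Trpm6 (chr19:18749983-18892511, plus, 142.5 kb) and Wnk1 (chr6:119923969-120038655, minus, 114.7 kb) are the longest, and Wnk4 (chr11:101260567-101277409, plus, 16.8 kb) is among the shortest. None overlapped a gene on the opposite strand, and the 1 overlap on the same strand was the microRNA Mir706 within Wnk1. Wnk4 lies in a dense region, 1.0 kb from Vps25 on the same strand and 0.6 kb from Coa3 on the opposite strand. The values cover whole genes, so the short Wnk1 isoform that the distal convoluted tubule makes from an internal promoter was counted together with the full-length gene.

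RefSeq promoters, 250 bases before to 50 bases after a start site on GRCm38.p6, were found for 8 of the 9 genes; Cdh16 was not among them. 3 are shown: those of Slc12a3 and Trpm6, whose kidney TS repair passed the test for a daily rhythm, and that of Umod, which held the single motif match. Both strands were searched for the E-box CACGTG, the D-boxes TTATGTAA and TTACGTAA, the HNF1 palindrome, which is GTTAAT, any base and ATTAAC, and its arm ATTAAC alone, which lies within that palindrome. Capitals mark the match, GTTAAT, which is ATTAAC on the other strand, at position -202 from the start site of Umod.
Umod (chr7:119479213-119479512, minus): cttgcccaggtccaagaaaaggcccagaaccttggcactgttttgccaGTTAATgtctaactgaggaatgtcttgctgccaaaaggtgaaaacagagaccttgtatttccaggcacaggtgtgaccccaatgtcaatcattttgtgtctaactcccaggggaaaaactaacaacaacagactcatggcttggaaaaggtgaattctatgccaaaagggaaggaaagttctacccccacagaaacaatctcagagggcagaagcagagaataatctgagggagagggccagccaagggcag
Slc12a3 (chr8:94328958-94329257, plus): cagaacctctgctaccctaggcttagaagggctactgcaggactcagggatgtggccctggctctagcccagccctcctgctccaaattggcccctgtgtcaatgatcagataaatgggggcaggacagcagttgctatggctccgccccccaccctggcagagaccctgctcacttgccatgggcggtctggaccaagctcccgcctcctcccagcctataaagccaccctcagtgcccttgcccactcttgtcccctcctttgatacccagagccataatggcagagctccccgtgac
Trpm6 (chr19:18749480-18749779, plus): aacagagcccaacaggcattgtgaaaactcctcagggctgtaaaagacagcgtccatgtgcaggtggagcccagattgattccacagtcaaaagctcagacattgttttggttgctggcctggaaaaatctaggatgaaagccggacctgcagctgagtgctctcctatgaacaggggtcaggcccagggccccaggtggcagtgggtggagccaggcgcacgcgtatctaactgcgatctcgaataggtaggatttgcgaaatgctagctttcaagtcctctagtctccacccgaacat
Among 32851 promoters of this length 7.15% held the E-box, 0.938% and 0.119% the D-boxes, 0.00913% the palindrome and 7.1% the arm. The absence of a match in the other 7 says only that these letters are not in those windows. The Trpm6 window ends before the start of the deposited Trpm6 entry, and the Kcnj1 window (chr9:32393735-32394034) lies inside the deposited Kcnj1 entry, away from its start.

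Whether the 9 genes were repaired more in the organ whose tubules use them was asked first. TS repair was higher in kidney than in liver for 8 of the 9, by 4.10-fold (Wnk4) to 46.5-fold (Cdh16), and slightly lower for Wnk1. Across all 19702 genes tested with edgeR's quasi-likelihood test and Benjamini-Hochberg adjustment, 73.9% were called at the threshold of 0.05, 42.2% higher in kidney and 31.7% lower. The median log2 difference was 2.92 over the 9 genes and 0.07 over all genes tested. All 10 genes of the proximal tubule list and all 10 of the collecting duct list were also higher in kidney. Their medians were 4.72 and 3.87, so the direction was shared with other nephron segments.

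Among the genes of the thick ascending limb, Kcnj1 ranged from 0.930 to 1.35 TS RPKM in the 12 kidney libraries (median 1.14) and from 0.0123 to 0.0875 in the 12 liver libraries (median 0.0217). The liver library at the top of that range was ZT4 replicate 1, the next highest being 0.0289, and no liver library came near a kidney one. The log2 difference was 5.53 ± 0.13 (SE, n = 12 and 12 libraries, edgeR adjusted p = 3.48e-17), and 5.70 without that library. For Slc12a1 the kidney libraries lay between 0.252 and 0.369 (median 0.301) and the liver libraries between 0.01002 and 0.0211 (median 0.0144), a log2 difference of 4.30 ± 0.08 (edgeR adjusted p = 2.73e-18). Cldn16 stood at 0.167 to 0.293 (median 0.256) in kidney and at 0.00338 to 0.0270 (median 0.00954) in liver, where all 12 libraries together held 62 TS reads. Its difference was 4.24 ± 0.16, and 4.50 without liver ZT4 replicate 1, which was also the highest liver library for this gene. Umod spread more within each tissue, from 0.356 to 0.610 in kidney (median 0.480) and 0.0399 to 0.108 in liver (median 0.0618), and differed by 2.87 ± 0.14. In none of these 4 genes did the kidney and liver libraries overlap.

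Of the distal convoluted tubule genes, Slc12a3 lay between 0.950 and 1.54 TS RPKM in kidney (median 1.18) and between 0.0899 and 0.352 in liver (median 0.233), a log2 difference of 2.42 ± 0.10 (edgeR adjusted p = 6.34e-14). Trpm6 ranged from 0.243 to 0.358 in kidney (median 0.323) and from 0.0330 to 0.0438 in liver (median 0.0404), a difference of 2.92 ± 0.05. The ranges did not overlap for either gene, and Trpm6 was the steadier, with a spread of 0.00382 RPKM (SD, n = 12) in liver around a mean of 0.0394.

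The kinases parted. Wnk4 had the highest TS repair of the 9 genes in kidney, 3.96 to 5.75 RPKM (median 4.50), and 0.769 to 1.36 in liver (median 1.07), a log2 difference of 2.03 ± 0.06. Wnk1, which most tissues express, lay at 1.16 to 1.31 in kidney (median 1.22) and at 1.20 to 1.49 in liver (median 1.37). Its libraries overlapped between the tissues, yet the kidney mean was the lower at 6 of 6 times, and the difference of -0.19 ± 0.04 passed the test (edgeR adjusted p = 1.62e-04). The cadherin gene Cdh16 ranged from 2.82 to 3.53 in kidney (median 3.11) and from 0.0432 to 0.173 in liver (median 0.0542), a difference of 5.54 ± 0.11. Its highest liver value again came from ZT4 replicate 1, followed by 0.0886, and without that library the difference was 5.67.

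**Figure D1:**
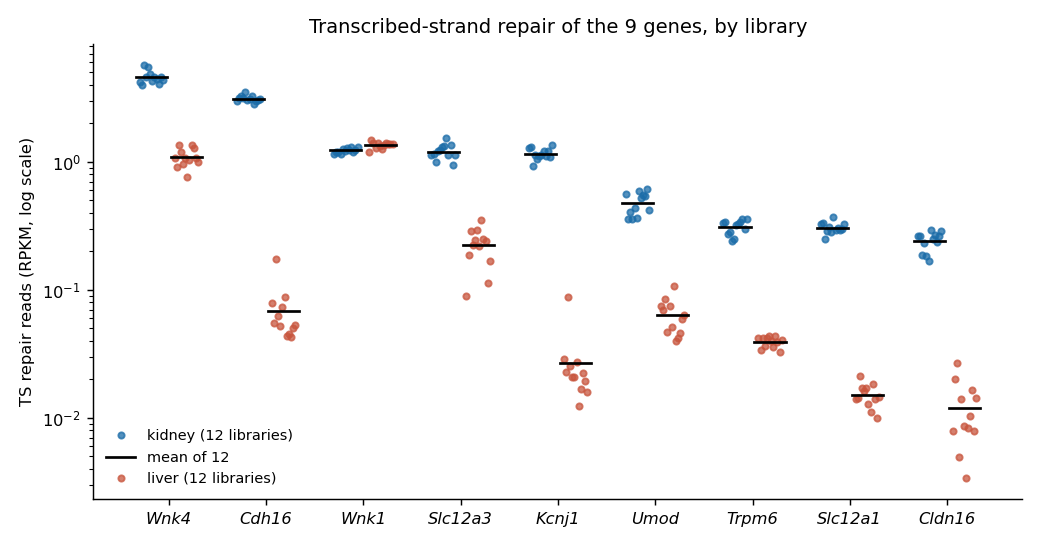
TS repair in RPKM (log axis) of the 9 genes in each of the 12 kidney and 12 liver libraries, ordered by the kidney mean, with black lines at the means. 8 genes separate by tissue with no overlap, the Wnk1 libraries overlap with the kidney mean the lower, and single liver libraries of Kcnj1 (0.0875) and Cdh16 (0.173) stand above the others.

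Ordered by mean TS RPKM in kidney, Wnk4 (4.61 ± 0.55, SD, n = 12) and Cdh16 (3.13 ± 0.18) stood above all others in every library. Wnk1 (1.23 ± 0.05), Slc12a3 (1.20 ± 0.16) and Kcnj1 (1.16 ± 0.12) followed and did not differ beyond their spread: Wnk1 was above Slc12a3 in 7 of 12 libraries and Slc12a3 above Kcnj1 in 8. Umod came next at 0.478 ± 0.095. Trpm6 (0.310 ± 0.040) and Slc12a1 (0.307 ± 0.030) were level, and Cldn16 (0.242 ± 0.041) was lowest, below Slc12a1 in all 12 libraries. Slc12a1, Umod and Cldn16, which define the thick ascending limb, therefore had less repair per kilobase than Wnk1. Among 21558 entries longer than 1 kb their kidney TS levels stood at the percentiles 41.6, 46.6 and 39.1, against 96.4 for Wnk4 and 89.2 for Cdh16. In liver the order began with Wnk1 (1.36 ± 0.08) and Wnk4 (1.09 ± 0.18) passed through Cdh16 and Umod, which were level (Cdh16 above Umod in 6 of 12 libraries), and ended with Slc12a1 (0.0151 ± 0.0031) and Cldn16 (0.0120 ± 0.0068).

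A list of 40 further genes of loop and distal tubule transport and its control served as the surrounding pathway. Of these 29 were higher in kidney TS repair and 5 were lower, beside 42.2% higher and 31.7% lower of all 19702 genes tested. The other 6 of the 40 did not pass the test. The median log2 difference of the 40 was 1.84, against 0.07 for all genes. Among those with the largest differences were Tfap2b (6.21 ± 0.14), Irx2 (5.49 ± 0.17) and Sall3 (4.96 ± 0.10), transcription factors, Fxyd2 (5.99 ± 0.15), a subunit of the sodium pump, and Bsnd (5.87 ± 0.17). The 5 lower ones, named after their values were seen, were Cldn14 (-3.17 ± 0.06), a claudin that opposes Cldn16 in the loop, Klhl3 (-0.49 ± 0.06), which directs the breakdown of the WNK kinases, Slc41a3 (-0.41 ± 0.08), Oxsr1 (-0.17 ± 0.04), a kinase that WNKs switch on, and Nedd4l (-0.09 ± 0.04). Nedd4l lost its call when reads were scaled to TS plus NTS (-0.03, edgeR adjusted p = 0.406) and in 7 of 24 fits with 1 library left out (largest adjusted p 0.0893).

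On the non-transcribed strand, where repair does not require transcription of the gene, 7 of the 9 genes were also higher in kidney, beside 66.1% of 19124 genes called in edgeR's test, 33.9% higher and 32.2% lower. Kcnj1 led, with 0.168 to 0.359 NTS RPKM in kidney and 0.00755 to 0.0405 in liver and a log2 difference of 3.37 ± 0.13. Umod (2.35 ± 0.15), Cldn16 (1.66 ± 0.16), Trpm6 (1.65 ± 0.09) and Slc12a1 (1.16 ± 0.11) followed, then Wnk4 (0.58 ± 0.07) and Slc12a3 (0.34 ± 0.09). For each of these 7 the NTS difference was smaller than the TS difference, which for Slc12a3 meant 0.34 beside 2.42.

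Cdh16 went the other way on this strand. Its NTS repair was 0.421 to 0.616 RPKM in kidney (median 0.540) and 0.459 to 1.08 in liver (median 0.754), lower in kidney at 6 of 6 times although the libraries overlapped. The log2 difference was -0.80 ± 0.09 (edgeR adjusted p = 3.19e-09), and -0.84 without liver ZT4 replicate 1. Wnk1 did not pass (-0.13 ± 0.07, edgeR adjusted p = 0.0822). The choice of scale matters here: with TS plus NTS reads as the library size the median over all NTS genes moved from 0.02 to 0.33, the share of calls higher in kidney from 51.3% to 76.4%, and Wnk1 to 0.18, a call in the opposite direction (adjusted p = 0.0179), while Cdh16 stayed lower.

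The strands were then set against each other within a library, as the excess of TS over NTS reads. The part of transcription in this excess was not tested. In kidney TS reads outnumbered NTS reads for all 9 genes, in 12 of 12 libraries each, beside 89.7% of 19756 genes called by edgeR, 78.6% with more TS and 11.1% with fewer. The log2 differences ran from 1.54 ± 0.09 for Slc12a3 and 1.67 ± 0.11 for Cldn16 to 2.81 ± 0.09 for Slc12a1 and 2.82 ± 0.07 for Wnk1, and the median over all genes was 2.34. The 9 genes therefore straddled the level of a typical gene. TMM scaling across the strand columns sets each strand against its own typical gene. With it the median moved to 0.01 and Umod, Slc12a3, Kcnj1, Wnk4, Trpm6 and Cldn16 turned negative, though only 3 of them were called on that scale. Wnk1, Slc12a1 and Cdh16 (2.54 ± 0.06) remained positive under both.

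In liver the same genes divided into 3 kinds, beside 89.2% of 19256 genes called by edgeR, 77.9% with more TS and 11.3% with more NTS reads. Wnk1 (3.13 ± 0.06), Umod (1.68 ± 0.20), Trpm6 (1.304 ± 0.090) and Wnk4 (1.08 ± 0.08) had more TS than NTS reads in 12 of 12 libraries each. Slc12a1 (-0.07 ± 0.12, edgeR adjusted p = 0.612) and Kcnj1 (0.38 ± 0.23, adjusted p = 0.120) showed no difference that passed the test, and without ZT4 replicate 1 Kcnj1 was at 0.08. Cldn16 (-0.64 ± 0.22, and -0.75 without ZT4 replicate 1), Slc12a3 (-0.31 ± 0.08) and Cdh16 (-3.53 ± 0.15) had more NTS than TS reads. On the scale of TMM across strand columns, Wnk1 alone stayed positive in liver.

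Cdh16 in liver was the extreme case. TS reads made up 4.37% to 19.6% of its reads in the 12 liver libraries (median 7.25%) and 83.7% to 87.8% in the 12 kidney libraries (median 85.4%). The strand with more repair was thus opposite in the tissues in every library, and the highest liver share came from ZT4 replicate 1. The difference in liver was -3.73 without that library. No annotated gene of the tables overlaps Cdh16 on the opposite strand. Its nearest downstream neighbour, Pdp2, lies 5.1 kb away on the opposite strand with a TS level of 3.44 ± 0.49 RPKM in liver and 3.80 ± 0.53 in kidney (SD, n = 12), and the part of this neighbour in the Cdh16 reads was not tested. For Slc12a3 the TS share was 62.6% to 80.4% in kidney and 38.1% to 53.2% in liver.

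**Figure D2:**
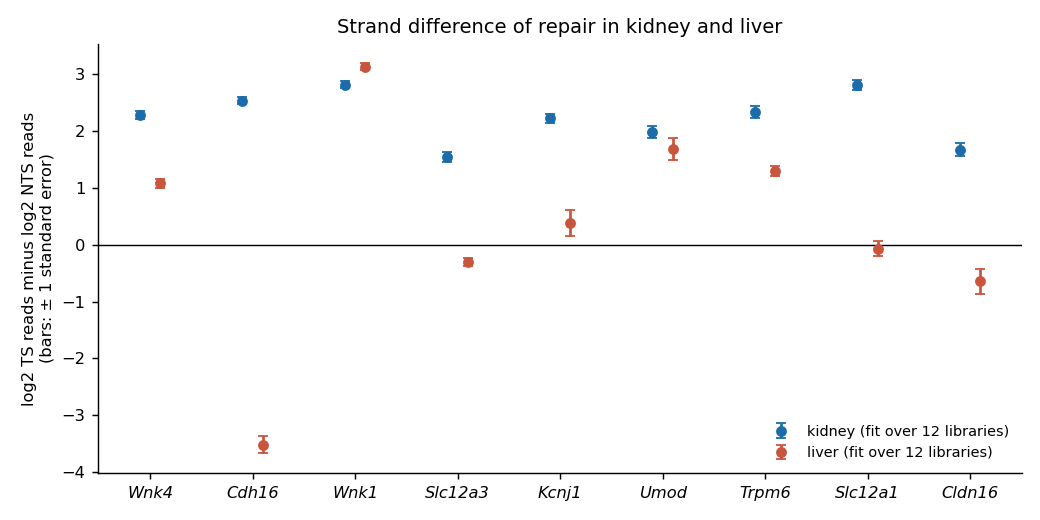
Log2 TS reads minus log2 NTS reads for the 9 genes in kidney and in liver, from the edgeR fit over 12 libraries per tissue, with bars of 1 standard error. All kidney values lie between 1.54 and 2.82, while liver values run from -3.53 for Cdh16 to 3.13 for Wnk1.

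The difference of that strand ratio between tissues was tested directly, as an interaction. It passed for 8 of the 9 genes, higher in kidney for 7 and lower for Wnk1, beside 58.1% of 20187 genes called, 22.2% higher and 35.9% lower. Cdh16 had the largest value (6.06 ± 0.16, log2), followed by Slc12a1 (2.88 ± 0.16), Cldn16 (2.31 ± 0.26), Slc12a3 (1.85 ± 0.12), Kcnj1 (1.85 ± 0.25), Wnk4 (1.21 ± 0.10) and Trpm6 (1.03 ± 0.14). Without liver ZT4 replicate 1 the values were 6.27 for Cdh16, 2.43 for Cldn16 and 2.14 for Kcnj1. Umod did not pass, at 0.30 ± 0.26 (edgeR adjusted p = 0.333), and its 12 liver libraries together held 79 NTS reads. It was lower in liver on both strands, as were Slc12a1, Cldn16, Slc12a3, Kcnj1, Wnk4 and Trpm6, which passed. Wnk1 was lower in kidney by -0.31 ± 0.08 (adjusted p = 0.00162), a call lost with TMM across the strand columns (-0.14, adjusted p = 0.0746). That scale moved the split of all calls from 38.2% to 52.9% higher in kidney, and the 7 genes higher in kidney stayed so. On the main scale the ratio was also called higher in kidney for 9 of 10 proximal tubule and 10 of 10 collecting duct genes. The medians of those lists were 2.85 and 2.57, against 1.85 for the 9 genes.

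Intergenic DNA beside the genes, available for kidney in tables drawn down to a fixed depth, gave a local level for comparison. Its reads are not split by strand, so the level per strand is an average over both strands. How the flank reads divide between the strands cannot be told, and NTS repair is set against that average. TS repair exceeded each flank in 12 of 12 libraries for all 8 genes that had one. NTS repair of Wnk1 was above its upstream flank in 12 of 12 (mean ratio 3.87), that of Trpm6 above its downstream flank in 12 of 12 but above its upstream flank in 0. For Slc12a1 (0.3004), Kcnj1 (0.481), Slc12a3 (0.608) and Cdh16 (0.630) the mean ratio of NTS to the downstream flank was under 1, with NTS below the flank in 12 of 12 libraries. The upstream flank of Kcnj1 gave another picture, with a mean ratio of 1.10 and NTS above it in 8 of 12. NTS repair of Cldn16 was above its upstream flank in 12 of 12 libraries (2.24) and above its downstream flank in 10 (1.33), and that of Umod above its upstream flank in 3 (0.883). The Slc12a3 flank, 16.3 kb up to Herpud1, carried 0.699 ± 0.174 RPKM per strand (SD, n = 12), more than the 0.428 of the gene's own NTS.

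Daily rhythms in kidney TS repair were tested with a 24 h cosine, whose amplitude is the log2 distance from mean to peak. 2 of the 9 genes passed, Trpm6 and Slc12a3, beside 15.0% of 19277 genes, so the share was near the background. The median amplitude was 0.14 over the 9 genes and 0.13 over all genes.

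Trpm6, the magnesium channel, was repaired least at ZT8 (0.243 and 0.250 TS RPKM in the 2 libraries) and at ZT4 (0.271 and 0.281). It stood at 0.331 and 0.339 at ZT0, 0.321 and 0.325 at ZT12, 0.339 and 0.358 at ZT16 and 0.2998 and 0.358 at ZT20. All 4 libraries of ZT4 and ZT8 lay below the other 8. The amplitude was 0.25 ± 0.05 with a peak at 18.6 h and a peak-to-trough ratio of 1.41 (edgeR adjusted p = 0.00659). Leaving out any 1 of the 12 libraries kept the call (largest adjusted p 0.0469), whereas removal of the trend with gene length, which lowered the amplitude to 0.16, did not (adjusted p = 0.0584). Its NTS repair in kidney had an amplitude of 0.08 ± 0.08 (adjusted p = 0.851), and its liver TS repair 0.05 ± 0.07 (adjusted p = 0.886).

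Slc12a3, the thiazide-sensitive cotransporter, was highest at ZT12 (1.34 and 1.54 TS RPKM) and lowest at ZT20 (0.950 and 1.14) and ZT4 (0.998 and 1.21). ZT8 gave 1.23 and 1.298, ZT16 1.13 and 1.35 and ZT0 1.13 and 1.14. Times overlapped in part, as at ZT16 and ZT4. The amplitude of 0.17 ± 0.05 with a peak at 12.0 h passed narrowly (edgeR adjusted p = 0.0497). Leaving out 1 library ended the call in 9 of 12 cases, with adjusted p up to 0.165 without ZT12 replicate 2. It also ended with a free mean per time (0.223), with the length trend removed (0.0577) and with the NTS share as a covariate (0.0730).

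The other genes did not pass. In edgeR's main fit Umod had the largest amplitude, 0.30 ± 0.09 with a fitted peak at 16.4 h (edgeR adjusted p = 0.0773). Its libraries were apart at ZT0 (0.562 and 0.356 TS RPKM) and ZT20 (0.610 and 0.421) but close at ZT12 (0.589 and 0.522) and ZT16 (0.556 and 0.541). Without ZT0 replicate 1 or ZT20 replicate 2 its edgeR adjusted p was 0.0113 or 0.0489. Cldn16 had 0.28 ± 0.09 (adjusted p = 0.0933), with 0.184 and 0.167 TS RPKM at ZT8 and 0.293 and 0.250 at ZT12, and without ZT12 replicate 1 its adjusted p was 0.0344. Kcnj1 (0.14 ± 0.05), Wnk4 (0.12 ± 0.05), Slc12a1 (0.08 ± 0.06), Wnk1 (0.08 ± 0.03) and Cdh16 (0.04 ± 0.03) had smaller amplitudes, with adjusted p from 0.119 to 0.660. Rhythms were also simulated at the depth of these libraries, in 200 changed genes with the same spread for every gene. Those of a peak-to-trough log2 difference of 0.5 were called for 38% of 100 genes, and of 1.0 for 89%. The simulation changed a far smaller share of genes than the 15.0% called in the data. It therefore does not measure how often an amplitude near 0.25 goes uncalled here.

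**Figure D3:**
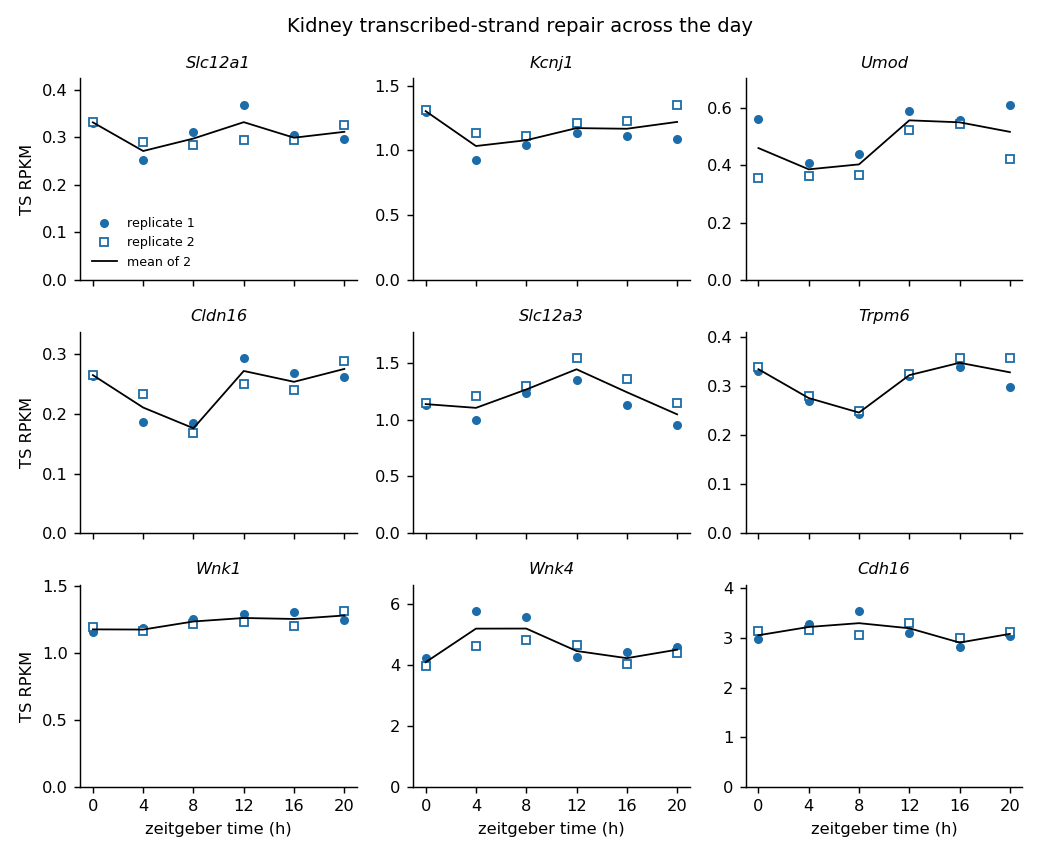
Kidney TS repair (RPKM, axes from 0) against zeitgeber time for the 9 genes, with filled circles for replicate 1, open squares for replicate 2 and a line through the means of 2. Trpm6 is lowest at ZT8 (0.243 and 0.250), Slc12a3 highest at ZT12 (1.34 and 1.54), and the replicates of Umod part at ZT0 and ZT20.

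Of the 40 pathway genes 8 passed the kidney TS rhythm test, again beside 15.0% of all genes, and 6 of the 8 peaked between ZT16 and ZT24, as did 69.9% of all called genes. That peak time depends on the scale: with TS plus NTS reads as library size 1404 of 3336 called genes peaked there, against 2017 of 2886. By size the first were Atp2b4 (0.36 ± 0.07, peak 18.7 h), a calcium pump, Casr (0.30 ± 0.06, 18.8 h), the calcium-sensing receptor of the loop, Irx1 (0.27 ± 0.06, 6.30 h), a transcription factor, Ptger3 (0.25 ± 0.05, 17.2 h), a prostaglandin receptor, Cnnm2 (0.20 ± 0.04, 19.3 h), which takes part in magnesium transport, and Nedd4l (0.14 ± 0.04, 19.0 h), a ubiquitin ligase. All 6 had edgeR adjusted p between 0.00659 and 0.0416. With 1 library left out the adjusted p of Ptger3 stayed at or below 0.0320 and that of the other 5 reached 0.0514 to 0.198. After removal of the length trend 4 genes of the list were called, Atp2b4, Casr, Ptger3 and Sgk1. With a free mean per time 0 of the 40 were called, and with the NTS share as a covariate 1. In the other direction, DESeq2 called 12 and a block on replicate number 16. Atp2b4, Casr, Cnnm2 and Nedd4l peaked within an hour of Trpm6 (18.6 h), which is a description of fitted peaks and not a test.

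Slc12a3 was the only one of the 9 genes called rhythmic on both strands in both tissues. In kidney its NTS repair was 0.521 and 0.680 RPKM at ZT12, 0.475 and 0.526 at ZT8 and 0.595 and 0.405 at ZT4, against 0.354 and 0.357 at ZT0, 0.340 and 0.329 at ZT16 and 0.236 and 0.304 at ZT20. All 6 libraries of ZT4 to ZT12 lay above the other 6. The amplitude was 0.37 ± 0.09 with a peak at 8.79 h (edgeR adjusted p = 0.0449), beside 2.12% of 18932 genes called; leaving out 1 library raised the adjusted p to at most 0.154 (without ZT20 replicate 1) and ended the call in 8 of 12 cases, as did the drawn-down tables (0.0534).

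In liver the TS repair of Slc12a3 was 0.0899 and 0.186 RPKM at ZT0 and 0.113 and 0.169 at ZT20, and 0.222 to 0.352 in the 8 libraries of ZT4 to ZT16. The amplitude was 0.54 ± 0.14 with a peak at 10.1 h (edgeR adjusted p = 0.0373), the only call among the 8 genes that could be tested there (Cldn16 had too few reads), beside 16.6% of 18655 genes. The call ended in 8 of 12 cases with 1 library left out, with adjusted p up to 0.116 without ZT12 replicate 2, and also with a free mean per time (0.232) and with the NTS share as a covariate (0.211). Liver NTS repair, tested after these results were seen, gave the clearest rhythm of the gene: 0.146 and 0.183 RPKM at ZT0 and 0.142 and 0.149 at ZT20, against 0.289 to 0.527 in the other 8 libraries. Its amplitude was 0.66 ± 0.09 with a peak at 10.5 h (edgeR adjusted p = 1.25e-04), beside 3.76% of 18061 genes, and with any 1 library left out the adjusted p stayed at or below 0.00257.

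The intergenic flank downstream of Slc12a3 in kidney varied with time too. Its means of 2 libraries were 0.608 RPKM per strand at ZT0, 0.821 at ZT4, 0.858 at ZT8, 0.884 at ZT12, 0.569 at ZT16 and 0.452 at ZT20. Herpud1, a stress gene 20.3 kb downstream on the same strand, had its highest kidney TS mean at ZT8 (4.65 RPKM) and its lowest at ZT16 (3.52), and in liver its highest at ZT4 (3.48) and its lowest at ZT12 (3.02). The part of the flank and of this neighbour in the Slc12a3 values was not tested. The kidney strand ratio of Slc12a3 followed a cosine of amplitude 0.40 ± 0.09, highest at 19.2 h, that fell short of the threshold (edgeR adjusted p = 0.0624).

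**Figure D4:**
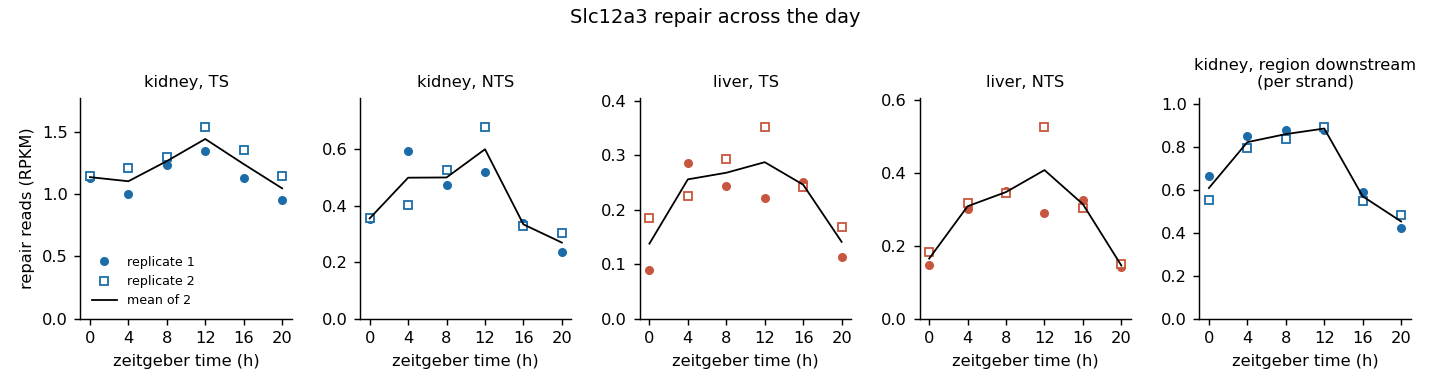
Repair of Slc12a3 in RPKM (axes from 0) against zeitgeber time on each strand in kidney and liver, and of the intergenic region downstream in kidney, with circles and squares for replicates 1 and 2 and a line through the means of 2. All panels are low at ZT20 and high at ZT12, with means of 0.146 and 0.408 RPKM for liver NTS.

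No other gene of the 9 passed edgeR's test of rhythm in liver or on the NTS. Kcnj1 (0.74 ± 0.25, edgeR adjusted p = 0.127) and Cdh16 (0.57 ± 0.19, adjusted p = 0.125) had large fitted amplitudes in liver TS repair that rested on 1 library: without ZT4 replicate 1 they were 0.23 and 0.24. The difference of TS rhythm between kidney and liver passed in edgeR for 0 of the 9 genes, with 4 at an unadjusted p under 0.05 (Kcnj1, Trpm6, Cdh16 and Slc12a3), beside 0.939% of 19702 genes. DESeq2 called Kcnj1 (adjusted p = 0.0077) and Cdh16 (adjusted p = 0.0301); in edgeR without liver ZT4 replicate 1 their adjusted p were 0.766 and 0.746. The rhythm of the kidney strand ratio likewise passed for 0 of the 9 in edgeR, with 4 at an unadjusted p under 0.05 (Slc12a3, Kcnj1, Trpm6 and Cldn16), beside 1.49% of 19756 genes.

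The 9 genes did not move as one group across the 12 kidney libraries. Over their 36 pairs Pearson's r of log2 TS CPM ran from -0.85 to 0.83 with a median of 0.11, a description of libraries that share depth and scaling. Among 13155 genes with at least 100 reads on average, the pattern of Wnk4 was most like those of Alad (r = 0.98), Pebp1 and Selenbp1 (both 0.97), that of Trpm6 most like Ccdc88c, Abcc1 and Glce (all 0.92), and that of Slc12a3 most like Lamc3, Rrm2 (both 0.93) and Fam46b (0.92). Umod was most like Nfib (0.96), Cldn16 like Zfp2 (0.97), Kcnj1 like 4930447K03Rik (0.96), Cdh16 like 2310030G06Rik (0.94), Wnk1 like Cspp1 (0.93) and Slc12a1 like Zfp457 (0.90). None of these nearest genes was another of the 9. That says little about the group, since each was the highest of 13155 candidates. Cldn16, with 1172 TS reads in the 12 kidney libraries, was below the limit of 100 on average and could not be picked.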

How the data were processed

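Per the file headers, the authors deposited, for each tissue, strand and replicate number, a whole-number count of reads and an RPKM value per gene and time. The counts were used for every test and the deposited RPKM values for levels between genes. Coordinates are on mm10, per the submitters' processing notes; the aligner is not given in the sources used. The extraction protocol in the labels names antibodies to lesions other than cisplatin adducts. Entries without a symbol (882, 2.76% of TS reads) were left out.

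Counts were tested with edgeR 4.0.16 (R 4.3.3): glmQLFit and glmQLFTest, TMM scaling, filterByExpr by group, Benjamini-Hochberg adjustment over all genes tested. Tissue means were taken over 6 times; rhythms used cosine and sine terms of 24 h; strand models blocked on library, with both strands sharing its size. An amplitude's standard error is taken along the fitted peak, from the F statistic there. Each fit was tested on simulated data. Alternatives were DESeq2 1.42.0 and its size factors, another library size, no count filter, a replicate block, the deposited drawn-down tables (8700000 and 20000000 reads), a length trend and the NTS share as covariates, and each library left out. The genes, the lists and the tests were chosen with earlier results of these data known. Named genes are the 9, and of the 40 pathway genes the 6 with the largest called tissue difference and the 6 with the largest called kidney amplitude. A gene that this rule names is not reported here. For likeness the 3 genes of highest r were taken.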

Additional observations from a re-analysis of the deposited data

Results flagged for a closer look

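The TS/NTS ratio of 8 of the 9 genes differed between kidney and liver by the test of the difference itself (edgeR interaction). Of all 20187 genes tested 58.1% were called as well, 22.2% with a higher ratio in kidney and 35.9% with a lower one. On the log2 scale, kidney minus liver, the values of the 8 were 6.06 for Cdh16, 2.88 for Slc12a1, 2.31 for Cldn16, 1.85 for Slc12a3, 1.85 for Kcnj1, 1.21 for Wnk4, 1.03 for Trpm6 and -0.31 for Wnk1. Without liver ZT4 replicate 1 they were 6.27 for Cdh16, 2.43 for Cldn16 and 2.14 for Kcnj1. Each kept its direction in all 24 fits with 1 library left out. The value for Cdh16 joins a higher TS and a lower NTS level in kidney, while those of the other 6 positive genes join higher levels on both strands. A higher kidney ratio was also called for 9 of 10 proximal tubule and 10 of 10 collecting duct genes, so it is not particular to these genes.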

How the results depend on the processing

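Of 461 values of the 9 genes under other settings 431 kept direction and call, 8 lost and 11 gained the call and 11 reversed; of 1608 with a library left out 1570 did, 25 lost and 12 gained it and 1 reversed. All tissue differences in TS repair of the 9 genes held throughout. TMM across the strand columns reversed TS against NTS in kidney for Umod (-0.35), Slc12a3 (-0.79), Kcnj1 (-0.11), Wnk4 (-0.055), Trpm6 (-0.0051) and Cldn16 (-0.65) and in liver for Umod (-0.71), Kcnj1 (-2.01), Wnk4 (-1.33) and Trpm6 (-1.10); Wnk1 on the NTS reversed to 0.18 with TS plus NTS as library size. Liver Slc12a1 TS against NTS ranged from -0.14 to 0.0031 with a library left out, the latter without liver ZT12 replicate 2. Genes called for kidney TS rhythm (2886) became 196 with a free mean per time, 1802 without the length trend and 712 with the NTS share as a covariate, with 1, 0 and 3 of the 9 genes called in place of 2 (Slc12a3 lost, Kcnj1 and Wnk4 gained with that covariate); for liver TS (3098) they became 549, 1583 and 660, with 0, 1 and 0 in place of 1. For kidney NTS (401) they became 237 with TS plus NTS as library size, 1171 without a filter, 635 in DESeq2 and 228 in the drawn-down tables, the last with 0 of the 9 in place of 1. For liver NTS (679, added later) no filter gave 1156 and 2 of the 9; for the rhythm difference (185) DESeq2 gave 706 and 2; for the ratio rhythm (294) TMM across strands gave 670 and no filter 502 and 1. The replicate numbers do not pair the samples by the labels, and 14 of 15 pairs within kidney correlated above 0.1; the replicate block gave 4899 kidney TS genes with 4 of the 9 (Umod and Kcnj1 gained), 1473 kidney NTS genes and 308 rhythm differences. With 1 library left out, calls ranged from 908 (without kidney ZT8 replicate 2) to 3938 (without kidney ZT0 replicate 2) with 1 to 3 of the 9 (kidney TS), 1639 to 4514 with 0 to 1 (liver TS), 87 to 1063 with 0 to 1 (kidney NTS), 385 to 1027 with 1 to 2 (liver NTS), 112 to 400 with 0 (rhythm difference) and 44 to 2792 with 0 to 3 (ratio rhythm). A choice among rows could not be varied, since each gene has 1 row. Depth limits Cldn16 in liver most (62 TS reads). The causes of these changes were not tested.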
